A study of Mus musculus with 8 samples.

Results

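The ATP-binding cassette (ABC) genes encode membrane pumps and a few related enzymes that bind and split ATP through a shared domain, and mouse genes of subfamilies A to G carry the symbols Abca to Abcg. Every gene whose name on the array was such a symbol followed by a digit was taken, which gave 50 genes on 73 probes out of 30325 genes on 39429 probes. Of these, 37 genes (74.0%) stood well above background on 4 arrays or more and could be compared, against 19495 of all genes (64.3%). The other 13 are described by the number of arrays on which they were detected.

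The arrays measured RNA of the lower crypts of the mouse jejunum, cut from sections by laser capture, with 1 array per mouse. All 8 mice were Lgr5EGFP-IRES-CreERT2/+ animals, with a reporter allele in a stem cell gene, were 4 to 6 weeks old, and received 80 mg/kg etoposide intravenously 3 h before tissue was taken. The fasted group was 4 mice without food for 24 h before the injection, the fed group was 4 mice with food throughout, with 2 mice of each sex per group by the labels. Moistened food was offered to both groups after the injection, so fasting cannot be told apart from eating again after a fast, and mice without etoposide were not among those analysed here. The animals were separate mice, and the 4 per group limit the precision of each value. The captured crypt base holds several cell types in bulk, so that fewer cells of a type and less RNA per cell cannot be told apart.

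Etoposide poisons topoisomerase II inside the cell, and several ABC pumps are known to carry the drug or its glucuronide out again. In the intestine such pumps sit on the luminal or the basolateral membrane of epithelial cells and set how much drug a cell keeps. Other family members move cholesterol, plant sterols, phospholipids, bile salts, haem precursors or very long chain fatty acids, and subfamilies E and F have no membrane part and act in translation. The comparison asked whether RNA of these genes stood at another level in crypts of fasted than of fed mice after the drug.

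Levels are log2 processed signals minus the 75th percentile of the same array, so 0 is the level of a fairly bright probe and negative values lie below it. They compare 1 probe between arrays and not 1 gene with another. The share of probes well above background ran from 53.6% to 65.4% on the fasted arrays and from 53.2% to 62.7% on the fed arrays. Fasted replicate 3, the only array of the second scan day, was least like the others, its correlation with each of them across genes being 0.827 to 0.925. Fed replicate 4 was labelled female, but Xist, which marks cells with an inactive X chromosome, was not well above background on it and the Y-linked Eif2s3y was. Lgr5 failed the background test on each array, whereas Olfm4 of crypt base stem cells, Lyz1 of Paneth cells and Muc2 of goblet cells were on all 8. Paired arrays on a shared slide were fasted 1 with fed 1 (slide 1), fasted 2 with fed 3 (slide 2) and fasted 4 with fed 4 (slide 5), while fasted 3 and fed 2 had no partner.

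No ABC gene passed the test between fasted and fed crypts. In limma with group and labelled sex as terms, 0 of 37 ABC genes and 0% of all 19495 genes had a Benjamini-Hochberg adjusted p under 0.05, and the smallest adjusted p was 0.78 in both. At an unadjusted p under 0.05 there were 5 ABC genes (13.5%) against 6.03% of all genes. Leaving out 1 array at a time, between 1 (without fasted 1 or fed 3) and 6 ABC genes did so, with 2 without fed 1. The 5 genes were Abcc2, Abcb10, Abcg5 and Abcf3, with higher values in fasted crypts, and Abcc5, with lower values. The 95% confidence interval of an ABC gene reached a median of 0.74 on the log2 scale to either side.

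Of the 37 genes, 23 had a higher mean in fasted crypts, against 42.9% of all genes, and their median log2 difference was 0.16 against -0.08 over all genes. On all 3 shared slides 17 of the 37 genes were higher in the fasted array, against 17.6% of all genes, and 7 of the 37 were lower, against 22.2%. The 4 fasted arrays lay above the 4 fed arrays for 3 of the 37 genes, Abcc2, Abca5 and Abce1, against 2.9% of all genes. Of these, Abca5 was measured through its fasted arrays, being detected on only 1 fed array, and its separation supports no count. The 4 fasted arrays lay below the 4 fed arrays for 1 of the 37 genes, Abcc5, against 2.08% of all genes. The median over the ABC genes was 0.22, 0.10 and 0.12 within slides 1, 2 and 5, and 0.13 without both fasted replicate 3 and fed replicate 4. It dropped to 0.03 without fasted 4, to 0.04 without fed 1 or fed 4 and to 0.05 without fed 2. With the share of probes above background as a covariate it was -0.01, with 18 of 37 genes higher. In limma with that covariate 14 of the 37 genes had an unadjusted p under 0.05, against 5507 of all 19495 genes. None had an adjusted p under 0.05 (smallest 0.062). The fit with slide as a block had no sex term, and fasted 3 and fed 2, without partners, added nothing to its differences. It thus compared the groups on the 3 shared slides, of which slide 2 held a male and a female by the labels. In that fit 10 of the 37 genes had an unadjusted p under 0.05, against 13.1% of all genes, and none had an adjusted p under 0.05 (smallest 0.14). These were the 5 genes named above and Abcc3, Abcg2, Abca17, Abcc4 and, with the same limit, Abca5.

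**Figure D1:**
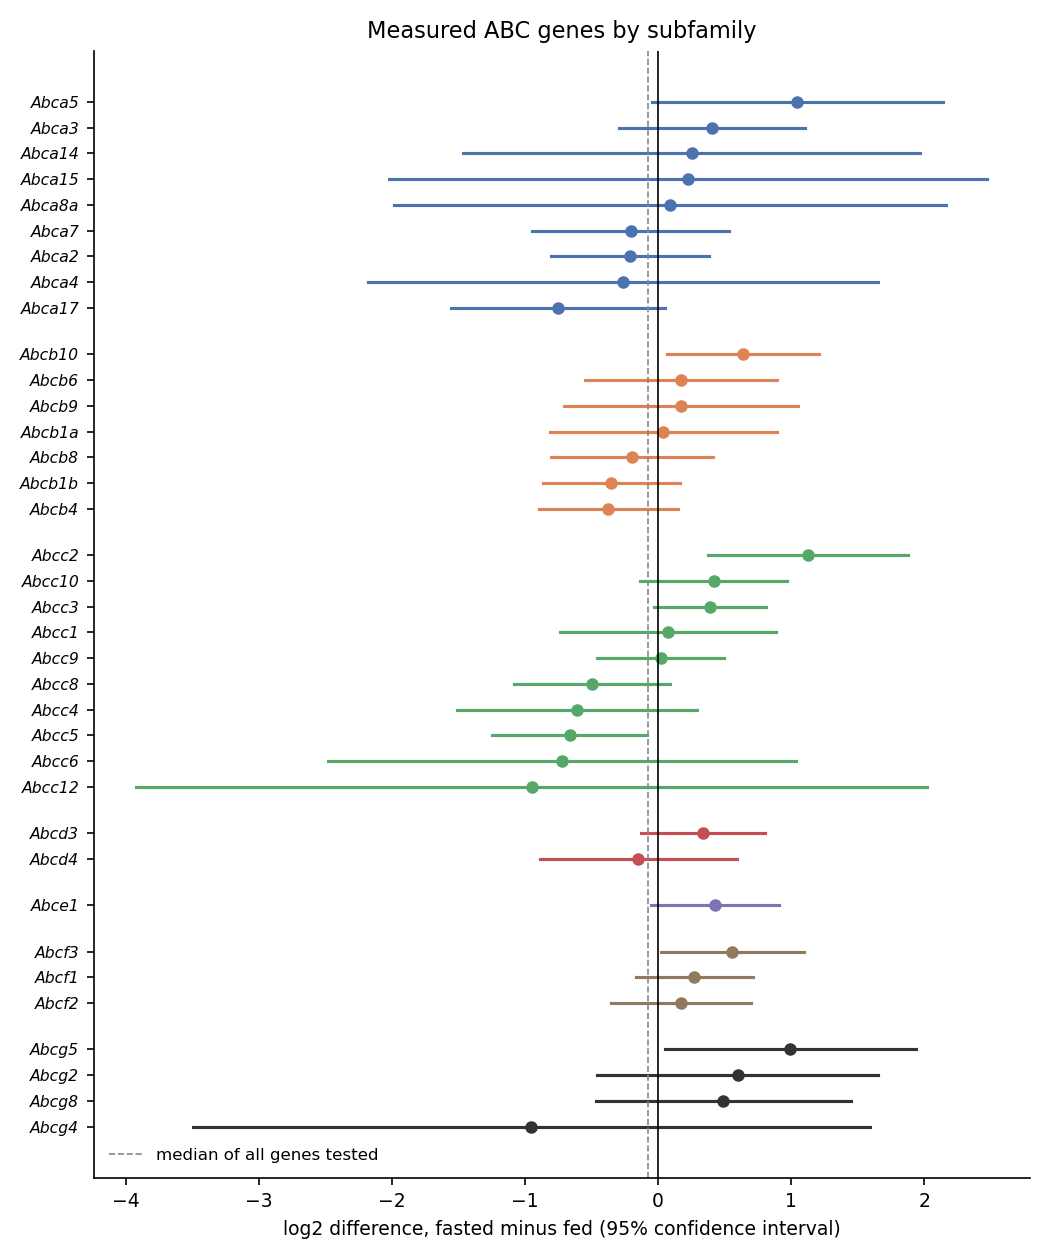
Log2 difference between fasted and fed crypts (points, x axis) with its 95% confidence interval (lines) for 36 measured ABC genes, grouped and coloured by subfamily A to G, and the median of all genes tested as a dashed line. Subfamily F lies to the right of 0 with all 3 genes, while the intervals of Abcc12 and Abcg4 span more than 5 log2 units.

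The markers of absorptive enterocytes moved with the groups and are given here because several ABC genes are known from those cells. Of 34 enterocyte markers 33 were measured, all but Slc2a2, and 32 had higher values in fasted crypts, against 42.9% of all genes, with a median log2 difference of 0.96 (1.28 without fasted 3 and fed 4). In limma 0 of the 33 had an adjusted p under 0.05 and 18 an unadjusted one, against 6.03% of all genes. Slc6a19, among the 18, was well above background on 4 fasted but 1 fed array, and Treh on 3 fasted but 1 fed array. Both were measured through their fasted arrays, so their higher values support no count. The summed level of the 33 markers, in multiples of the array's 75th percentile, was 248 to 403 on the fasted and 150.2 to 215 on the fed arrays, which do not overlap. Slc7a9, an amino acid carrier subunit, Enpep and Mep1b, both brush border peptidases, had the smallest p. The Paneth markers stood the other way. Of 18 listed, 12 were on the array and measured, 11 of them lower, against 11122 of all 19495 genes. Their median was -0.45, and -0.90, -0.62 and 0.02 within slides 1, 2 and 5. In limma 0 of the 12 had an adjusted p under 0.05 and 2 an unadjusted one. Their sums were 486 to 652 on the fasted and 658 to 896 on the fed arrays. The sums over all genes tested were 93839 to 110150 on the fasted and 107890 to 131330 on the fed arrays. Lists of stem, goblet, enteroendocrine, leukocyte, endothelial and fibroblast markers had medians between -0.31 and 0.18, with 0 genes passing. Of the 12 measured stem markers 7 had higher and 5 lower means. Olfm4, with the smallest p among them, was at -1.12 (SE 0.23, limma adjusted p = 0.78). Every fasted array was below every fed one for it, as for 2.08% of all genes. The part of these cell types in the values of the ABC genes was not tested.

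The etoposide pumps were all measured on all 8 arrays. Abcb1a and Abcb1b encode P-glycoprotein of the mouse, Abcc1, Abcc2 and Abcc3 encode multidrug resistance proteins, and Abcg2 encodes the breast cancer resistance protein. All but Abcb1b had a higher mean in fasted crypts, with a median log2 difference of 0.23, and 3 of the 6 (Abcc2, Abcc3 and Abcg2) were higher on each shared slide. None passed the test. Each value rests on a probe of 60 bases, whose first 30 bases, as the array files list them, are shown so that the measured stretch of each pump can be found, with the whole probe's mm9 position:
Abcb1a, chr5:8748075-8748134, plus strand: actcagacatgggcacctgagttcagatcc
Abcb1b, chr5:8865925-8865984, plus strand: tccaggctggagcaaagcgctcatgagctg
Abcc1, chr16:14474551-14474610, plus strand: cctacttatgagcatcgtttcgtggagaag
Abcc2, chr19:43912079-43912138, plus strand: atttcttagttacttttgttcttgtgactg
Abcc3, chr11:94204612-94204671, minus strand: aacagagaccctgtactggtgctgtctgag
Abcg2, chr6:58642312-58642371, plus strand: cctggcttgtatgattattatcttcctcac
The Abcb1a and Abcb1b genes lie side by side on chromosome 5 and are near copies of each other. The 2 probes share no run of bases longer than 7.

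Abcc2, the pump that exports glucuronides and other conjugates through the luminal membrane, had the smallest p of all ABC genes. It stood at -0.41, 0.02, -0.84 and -1.48 on fasted arrays 1 to 4 and at -1.63, -2.03, -1.60 and -1.94 on fed arrays 1 to 4. Every fasted array was above every fed one, the lowest of them, fasted 4, only slightly. The mean was -0.68 ± 0.64 (SD, n = 4) in fasted and -1.80 ± 0.22 (SD, n = 4) in fed crypts, a 2.18-fold difference (log2 1.12, SE 0.33, limma adjusted p = 0.78, unadjusted 0.0086). Within slides 1, 2 and 5 it was 1.22, 1.62 and 0.46, and with slide as a block 1.1. Without fasted 3 and fed 4 the difference was 1.13. The enterocyte sums that differ between the groups without overlap stand beside this value, and their part in it was not tested.

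Abcc3, which exports conjugates across the basolateral membrane, was at 1.90, 2.00, 1.71 and 1.86 on fasted arrays 1 to 4. On fed arrays 1 to 4 it was at 1.35, 1.87, 1.30 and 1.37. The groups overlapped through fed 2, which was as high as the fasted arrays, while the other fed arrays lay below all of them. The log2 difference was 0.39 (SE 0.18, limma adjusted p = 0.78), and 0.58 with slide as a block.

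Abcg2, a luminal pump for many drugs and for urate, was at 0.23, -0.07, -1.95 and -0.44 on fasted arrays 1 to 4. It was at -0.89, -1.69, -1.23 and -0.83 on fed arrays 1 to 4. Fasted 3 was the lowest of all 8 arrays, whereas the other fasted arrays were above every fed one. Fasted minus fed, this came to a log2 difference of 0.60 (SE 0.46, limma adjusted p = 0.78). Without fasted 3 it was 1.05, without fed 2, the lowest fed array, 0.285, without fasted 1 0.39 and with the share above background as a covariate 0.31. Without both fasted 3 and fed 4 it was 1.17 (limma adjusted p = 0.36). It was 1.11, 1.15 and 0.39 within slides 1, 2 and 5.

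Abcb1a, the luminal P-glycoprotein gene of the mouse intestine, was at 1.34, 1.94, 0.85 and 1.63 on fasted arrays 1 to 4 and at 2.36, 0.94, 1.56 and 0.73 on fed arrays 1 to 4. The groups were fully mixed, and the fed arrays held both the highest and the lowest value. The means differed by a log2 value of 0.04, with a 95% confidence interval from -0.81 to 0.89 (limma adjusted p = 0.98). It was -1.03 within slide 1 and 0.90 within slide 5, and turned to -0.15 with normexp background correction.

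Abcb1b, its neighbour, was at 0.99, 0.78, 0.56 and 0.72 on fasted arrays 1 to 4 and at 1.59, 1.19, 1.17 and 0.50 on fed arrays 1 to 4. Fed 4 was below all fasted arrays and the other fed arrays were above all of them. This gave a log2 difference of -0.35 (95% confidence interval from -0.87 to 0.17, limma adjusted p = 0.78). Abcc1, a basolateral pump for glutathione conjugates and drugs, was at -2.92, -2.84, -2.13 and -2.65 on fasted and at -2.79, -2.34, -2.94 and -2.77 on fed arrays 1 to 4. The arrays of both groups were mixed, with a log2 difference of 0.08 (95% confidence interval from -0.74 to 0.89, limma adjusted p = 0.96) that was -0.11 without fasted 3 and fed 4.

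**Figure D2:**
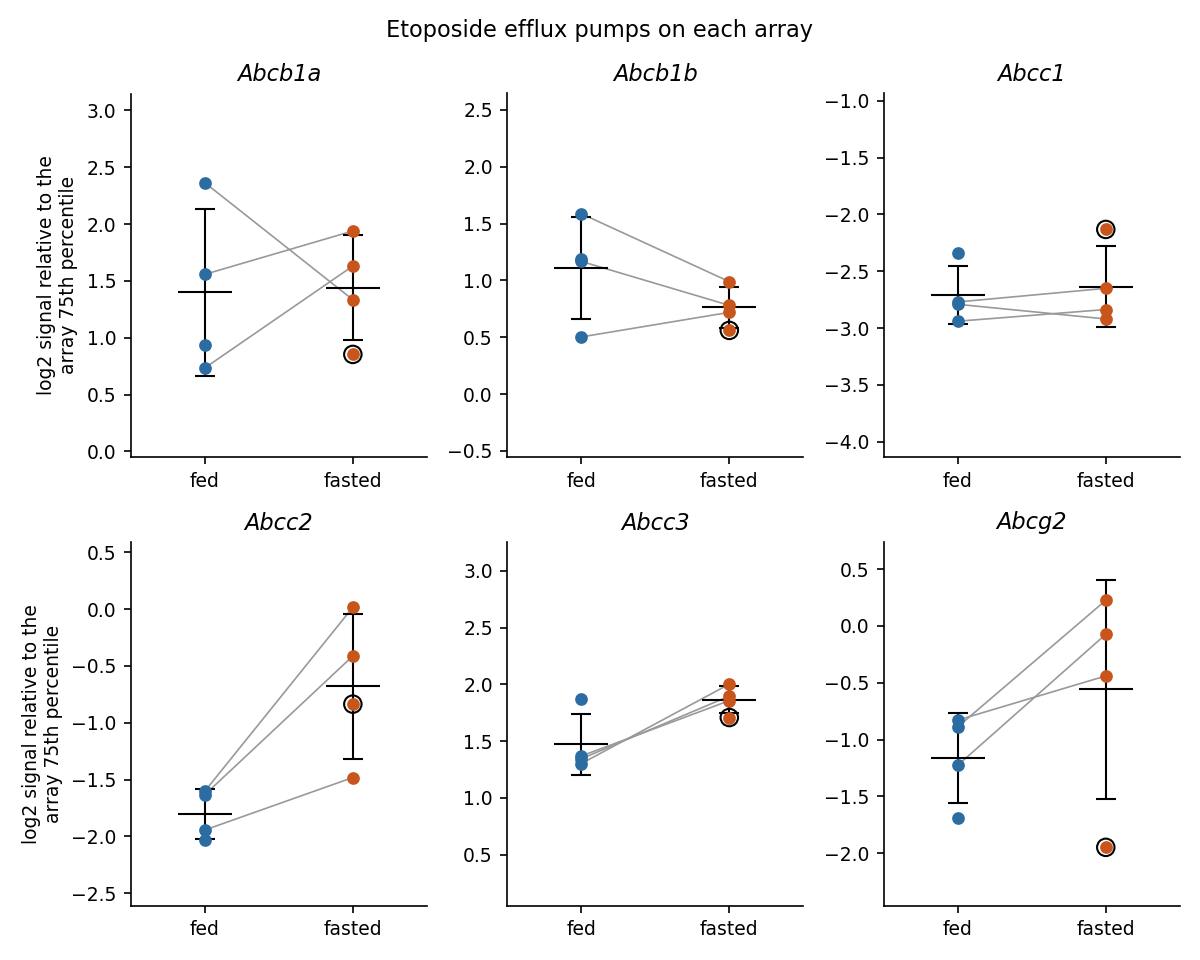
Level of the 6 etoposide pumps (y axis, log2 signal relative to the array's 75th percentile, each panel spanning the same number of log2 units) on the 4 fed and 4 fasted arrays (points), with mean and SD in black, grey lines joining arrays of a shared slide and a ring around fasted 3. Abcc2 is the only panel without overlap between the groups, and fasted 3 is the lowest array for Abcg2.

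Of 5 sterol transporters 3 were measured, 2 with higher and 1 with lower means. Abcg5 and Abcg8 encode the partners of a pump that returns plant sterols and cholesterol to the gut lumen, and Abca1, Abcg1 and Abcg4 export cholesterol to lipoproteins. Abcg5 was at 2.31, 2.18, 0.47 and 1.94 on fasted arrays 1 to 4 and at 1.02, 0.16, 0.80 and 0.94 on fed arrays 1 to 4. Fasted 1, 2 and 4 were above all fed arrays, and fasted 3 lay among them. Between the groups the log2 difference was 1.00 (SE 0.41, 1.99-fold, limma adjusted p = 0.78), and 1.48 (SE 0.28, limma adjusted p = 0.26) without fasted 3 and fed 4. Within slides 1, 2 and 5 it was 1.29, 1.38 and 1.00. With slide as a block it was 1.22 (limma adjusted p = 0.14), the smallest p of the ABC genes in that fit. Fasted 3, low for Abcg5, added nothing to that value, having no partner on its slide.

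Abcg8, its partner, was at -1.04, -1.16, -2.65 and -2.82 on fasted arrays 1 to 4 and at -1.48, -2.84, -2.44 and -2.88 on fed arrays 1 to 4. Fasted 1 and 2 were the highest arrays and the others were mixed. The log2 difference was 0.49 (SE 0.42, limma adjusted p = 0.79), and it was 0.44, 1.28 and 0.06 within slides 1, 2 and 5, and 0.11 without fed 2. Both partners were thus higher in the fasted array on each shared slide, with a larger difference for Abcg5 on each. Abcg1 was detected on 0 arrays, and Abca1 on fasted 2 and 4 alone.

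The 2 partners start back to back on chromosome 17, and the stretch between their first bases is shown because both share it. In RefSeq (GRCm38.p6) Abcg5 starts at 84683011 on the minus strand and Abcg8 at 84683121 on the plus strand, with 109 bases between them, and a further Abcg8 start lies elsewhere. The stretch was searched on both strands for GATAA, a core that GATA factors bind, AGGTCA, a core bound by nuclear receptors, and CCAAT, bound by NF-Y, and matches are in capitals. The same search was made in the 250 bases before the start of Abcc2, the gene with the smallest p:
Abcg5 to Abcg8, chr17:84683012-84683120, plus strand: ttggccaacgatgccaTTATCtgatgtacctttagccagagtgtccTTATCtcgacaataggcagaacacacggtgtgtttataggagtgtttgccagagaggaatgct
Abcc2, chr19:43782058-43782307, plus strand: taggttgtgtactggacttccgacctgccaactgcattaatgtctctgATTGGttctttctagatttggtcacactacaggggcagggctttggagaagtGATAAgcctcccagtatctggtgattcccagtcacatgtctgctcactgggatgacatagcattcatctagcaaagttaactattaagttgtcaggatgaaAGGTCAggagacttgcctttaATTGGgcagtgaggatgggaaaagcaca
The shared stretch held 2 matches to GATAA, both on the strand of Abcg5, 93 and 63 bases before the Abcg8 start, and 9.36% of all windows of that length before a start held at least 1. The Abcc2 window held GATAA at 150, AGGTCA at 49 and CCAAT at 202 and 28 bases before the start. Over all 32851 windows of 250 bases, 22.6% held GATAA, 14.0% AGGTCA and 33.9% CCAAT. Among the 38 ABC genes with an entry, 10 held GATAA, 5 AGGTCA and 13 CCAAT, shares of 26.3%, 13.2% and 34.2%. A match is only a run of letters.

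Among the lipid transporters of subfamily A, 9 of 16 genes were measured, 5 with higher and 4 with lower means. Abca5, a lysosomal protein linked to sterol traffic, was at -2.61, -2.62, -2.65 and -1.28 on fasted arrays 1 to 4 and at -2.94, -2.94, -3.51 and -3.95 on fed arrays 1 to 4. All fasted arrays lay above all fed ones, and fasted 4 stood well above the rest. Fasted minus fed, this came to a log2 difference of 1.05 (SE 0.47, limma adjusted p = 0.78). Detection of the gene held for all 4 fasted arrays and only fed 1, so it entered the comparison through the group in which it was brighter. Without fasted 4 the difference was 0.63, with normexp background correction it was 0.42, and a second probe of the gene stayed near background on all 8. The position of its probe spans 1100 bases of mm9.

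Of the others in this subfamily, Abca3, the surfactant lipid pump, had a log2 difference of 0.41 (0.14 without fasted 3), Abca2, of neural lipid handling, -0.21, and Abca7, a phospholipid exporter, -0.21. Abca17 was at -0.75 (-0.36 without fasted 3), lower on each shared slide, and its second probe stayed near background. Abca4, the retinal transporter, was at -0.26, Abca14 at 0.25, Abca15 at 0.23 and Abca8a at 0.09, with standard errors from 0.75 to 0.98. The other measured probe of Abca14 gave -0.57, and that of Abca2 gave 0.08. Abca6, Abca8b, Abca12, Abca13 and Abca16 were well above background on 0 arrays and Abca9 on fasted 1 alone.

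In subfamily B, the mitochondrial transporter Abcb10, needed for haem synthesis in developing red cells, had the smallest p. It was at 0.24, -0.04, 0.18 and -0.58 on fasted arrays 1 to 4 and at -0.30, -0.64, -0.88 and -0.94 on fed arrays 1 to 4. Fasted 1, 2 and 3 were above all fed arrays, and fasted 4 lay among them. The means differed by a log2 value of 0.64 (SE 0.25, 1.56-fold, limma adjusted p = 0.78), and 0.54, 0.84 and 0.35 within slides 1, 2 and 5. The other mitochondrial members were at 0.18 (Abcb6, a porphyrin carrier) and -0.19 (Abcb8). Abcb4, the phosphatidylcholine transporter of bile, had a log2 difference of -0.37 and was lower on each shared slide. Abcb9, a lysosomal peptide carrier, was at 0.17. The bile salt pump Abcb11 and Abcb5 were well above background on 0 arrays.

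All 10 genes of subfamily C were measured, 5 with higher and 5 with lower means, so that the pumps Abcc1, Abcc2 and Abcc3 and their relatives stood on both sides of 0. Abcc5, an exporter of cyclic nucleotides and other organic anions, was the only ABC gene with every fasted array below every fed one. It was at 0.09, 0.49, -0.19 and 0.70 on fasted arrays 1 to 4 and at 1.23, 0.79, 0.87 and 0.85 on fed arrays 1 to 4. Fasted 4 came within a small step of the lowest fed array, fed 2. This gave a log2 difference of -0.66 (SE 0.25, 0.63-fold, limma adjusted p = 0.78), and -1.14, -0.38 and -0.15 within slides 1, 2 and 5. The other 2 measured probes of the gene gave differences of -0.27 and -0.03, and the mean of the gene's probes gave -0.32.

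Abcc4, another exporter of cyclic nucleotides and of prostaglandins, had a log2 difference of -0.61, was lower on each shared slide, and stood at -0.18 with normexp background correction. Abcc8, the sulfonylurea receptor of potassium channels, was at -0.50 (-0.32 without fasted 1), and its second probe gave -0.91. Its relative Abcc9 was at 0.02. Abcc10, a further drug exporter, was at 0.42 (0.27 without fasted 3) and higher on each shared slide. Abcc6, known from soft tissue calcification, was at -0.72 and Abcc12, an orphan member, at -0.95, and without fasted 3 and fed 4 they stood at 0.13 and 0.36. The second probe of Abcc6 was well above background on 0 arrays.

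In subfamily D, peroxisomal transporters of fatty acids, Abcd3 had the smallest p. It was at 3.00, 2.71, 3.24 and 2.57 on fasted arrays 1 to 4 and at 2.77, 2.57, 2.48 and 2.36 on fed arrays 1 to 4. The groups overlapped, with fasted 1 and 3 above all fed arrays. Between the groups the log2 difference was 0.34 (SE 0.20, limma adjusted p = 0.78), between 0.21 and 0.24 within each of the 3 shared slides, and 0.175 without fasted 3, its highest array. Abcd4, which serves vitamin B12 release from lysosomes, was at -0.15. Abcd2 was well above background on 0 arrays.

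Subfamilies E and F hold ATPases of translation, and all 4 had a higher mean in fasted crypts and were higher on each shared slide. Abce1, which recycles ribosomes, was at 0.24, 0.03, 0.35 and -0.13 on fasted arrays 1 to 4 and at -0.40, -0.37, -0.26 and -0.19 on fed arrays 1 to 4. All fasted arrays were above all fed ones, fasted 4 by little. The log2 difference was 0.43 (SE 0.21, limma adjusted p = 0.78). Abcf3 was at 0.50, 0.76, 0.93 and 0.20 on fasted arrays 1 to 4 and at 0.05, 0.10, 0.21 and -0.20 on fed arrays 1 to 4. Fasted 4 lay just under the highest fed array and the other fasted arrays were above all fed ones. The log2 difference of Abcf3 was 0.56 (SE 0.23, limma adjusted p = 0.78), within slides 1, 2 and 5 it was 0.45, 0.55 and 0.40, and Abcf1 and Abcf2 were at 0.27 and 0.17.

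In subfamily G, besides the sterol pump and Abcg2, Abcg4 had a log2 difference of -0.95 (SE 1.1), and Abcg3 was well above background on 0 arrays. The value of Abcg4 rests on 1 probe, as its other probes were well above background on 0 and 2 arrays.

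**Figure D3:**
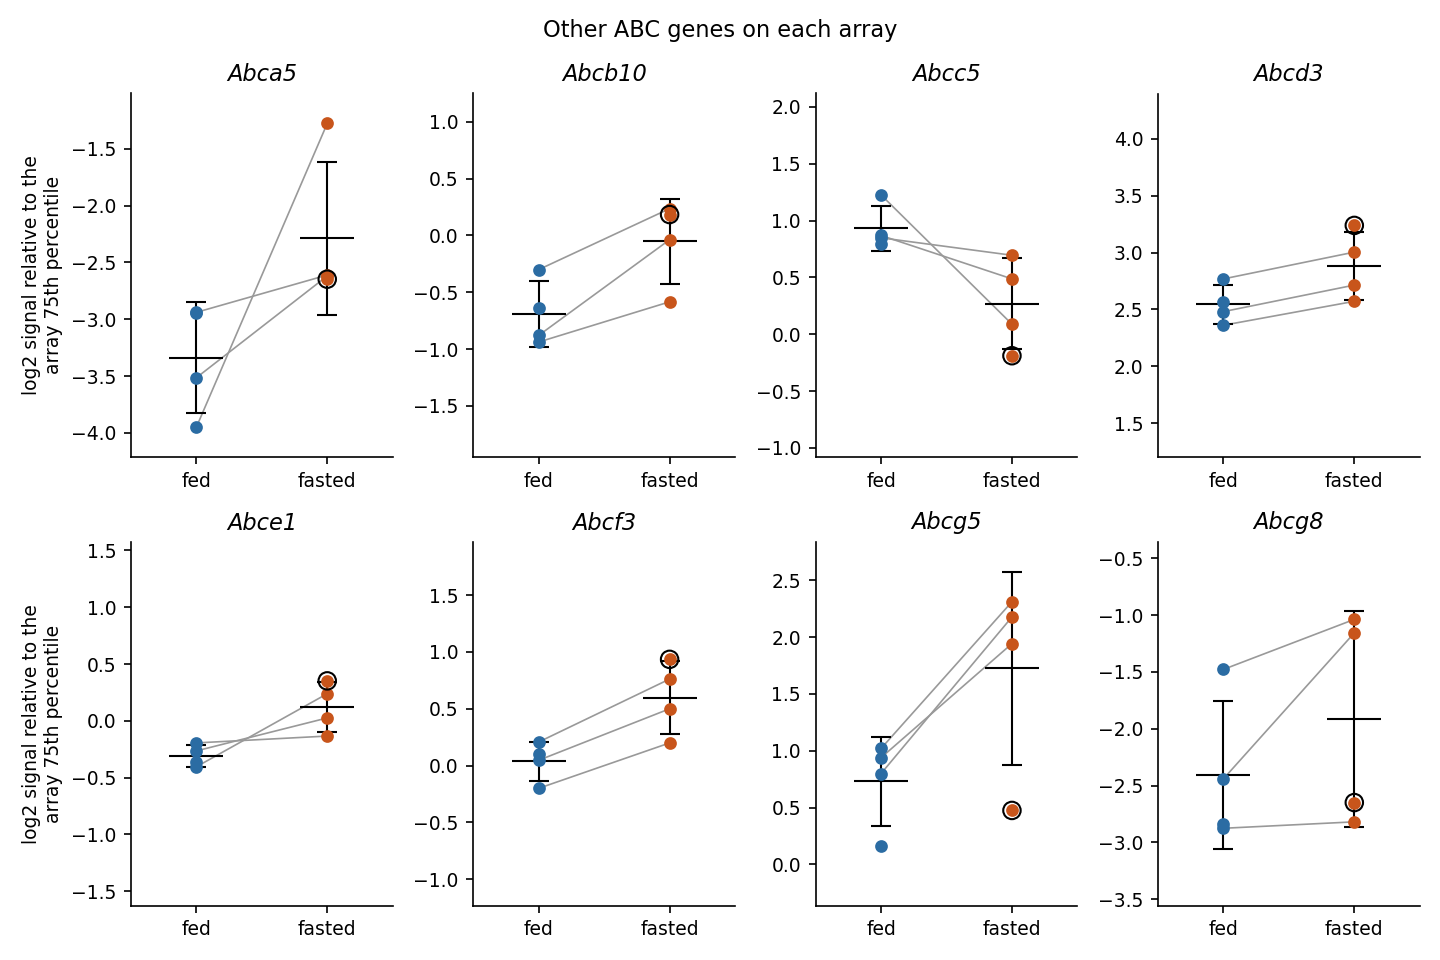
Level of 8 further ABC genes (y axis, log2 signal relative to the array's 75th percentile, each panel spanning the same number of log2 units) on the 4 fed and 4 fasted arrays (points), with mean and SD in black, grey lines joining arrays of a shared slide and a ring around fasted 3. Abca5, Abce1 and Abcc5 have no overlap between the groups, and fasted 3 is low for Abcg5 but the highest array for Abcf3, Abce1 and Abcd3.

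Across the 8 arrays 22 of the 37 genes ranged over less than 1.5 log2 units, and 5 ranged over more than 3, namely Abca15, Abca8a, Abcc6, Abcc12 and Abcg4. Abcc12 was at 1.94, 5.63, -0.03 and 4.85 on fasted arrays 1 to 4 and at 2.92, 2.63, 5.79 and 4.84 on fed arrays 1 to 4. The arrays of slides 2 and 5 (fasted 2 with fed 3, and fasted 4 with fed 4) were high and the other 4 arrays were low in both groups. Abcg4 was at -2.22, -0.81, -5.64 and -0.66 on fasted arrays 1 to 4 and at -2.45, -1.91, -0.84 and -0.34 on fed arrays 1 to 4. Its high arrays were the same 4, and fasted 3 was the lowest for all 5 genes.

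Those 4 arrays had the highest shares of probes above background in their groups, 65.4% and 63.9% for fasted 2 and 4 and 62.0% and 62.7% for fed 3 and 4. Within slides 1, 2 and 5 the differences between fasted and fed arrays were -0.98, -0.16 and 0.01 for Abcc12 and 0.23, 0.02 and -0.33 for Abcg4. The brightest of 3 Abcc12 probes, whose mm9 position spans 1301 bases, gave these values. A second measured probe differed by -0.42 between the groups, and the third stayed near background. In limma with the share of probes above background as a covariate, Abcg4, Abcc12 and Abcc6 stayed lower in fasted crypts. Their limma adjusted p was 0.062, 0.066 and 0.066, where the smallest of all genes was 0.062. Abca15 and Abca8a turned to -0.523 and -0.574 in that fit. Beyond this covariate, the part of array quality in these values was not tested.

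**Figure D4:**
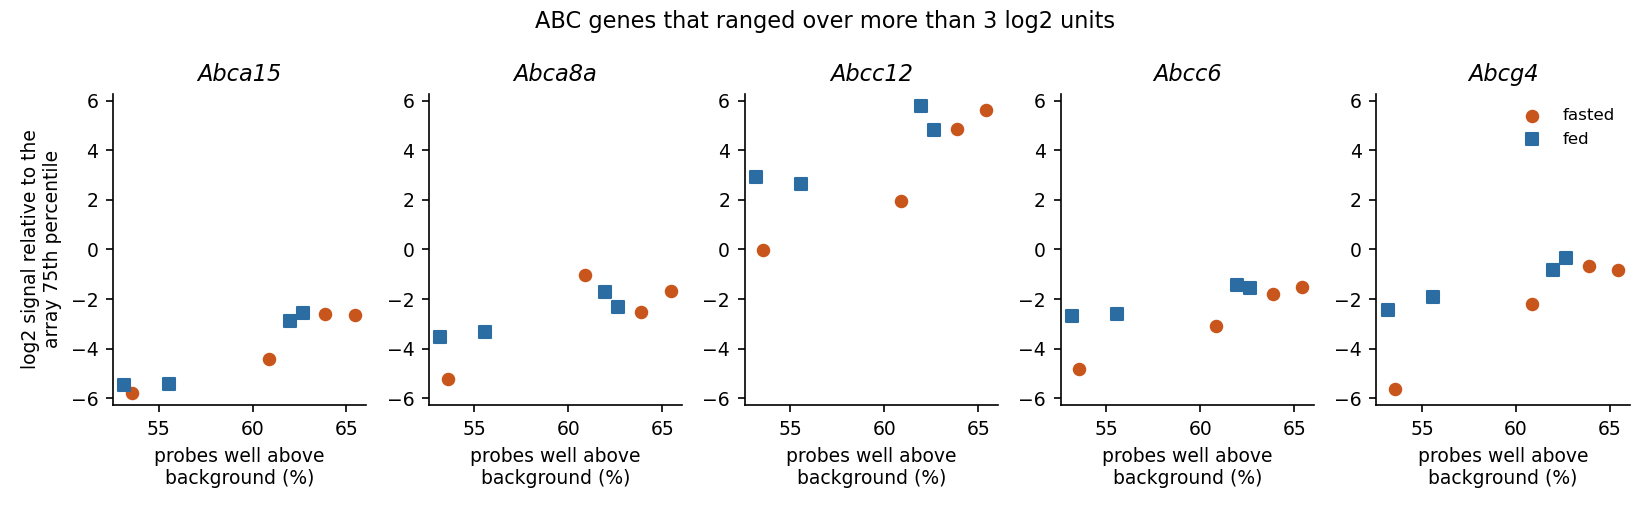
Level of the 5 ABC genes that ranged over more than 3 log2 units (y axis, log2 signal relative to the array's 75th percentile) against the share of probes well above background on each array (x axis, percent), with fasted arrays as circles and fed arrays as squares. Fasted 2 and 4 and fed 3 and 4 hold the high values of Abca15, Abcc6, Abcc12 and Abcg4, and fasted 3 is the lowest array in each panel.

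Detection varied between arrays. Between 32 (fasted 3) and 38 (fasted 2 and 4) of the 50 genes were well above background on a fasted array, and between 34 (fed 1 and 2) and 37 (fed 4) on a fed array. Of the measured genes 30 were detected on all 8 arrays by the probe used. Of the 13 unmeasured genes, 10 were detected on 0 arrays.

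**Figure D5:**
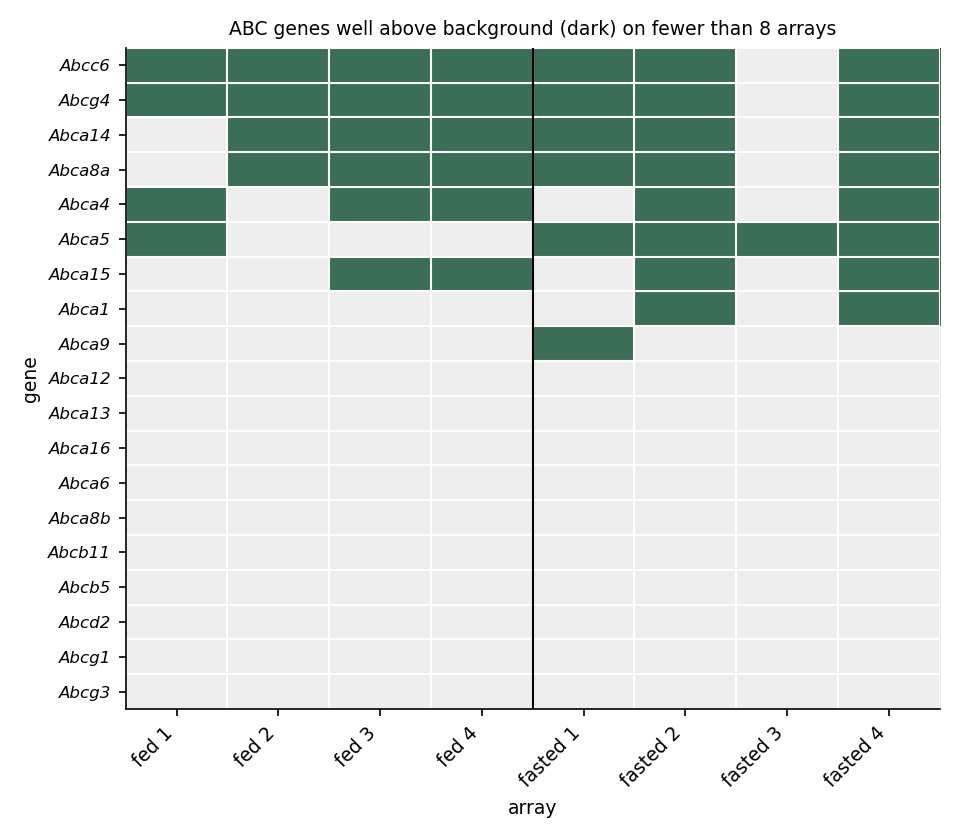
Detection of 19 ABC genes not well above background on all 8 arrays by any of their probes, with fed arrays on the left and fasted arrays on the right of the black line (x axis) and 1 gene per row (y axis). Abca5 is dark on all fasted arrays and 1 fed array, and Abca1 on fasted 2 and 4 alone.

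The genes around the ABC pumps were described from lists of receptors, other carriers and further targets. Beside the counts stand 42.9% of all genes with higher means and 6.03% at an unadjusted p under 0.05. Of 14 receptors and factors known to act on ABC genes 13 were measured, 8 with higher and 5 with lower means, with a median of 0.12, 0 passing in limma and 2 at an unadjusted p under 0.05. The smallest p belonged to Nr1h3, the sterol receptor LXR alpha that switches on Abca1, Abcg5 and Abcg8 (log2 difference 0.68, SE 0.18, limma adjusted p = 0.78). Nfe2l2, the NRF2 factor that acts on Abcc2 and Abcc3, was at 0.59 and Nr1i2, the drug receptor PXR, at 0.48. Of 8 further LXR targets 7 were measured, 6 with higher means, with a median of 0.53, 0 passing and 2 at an unadjusted p under 0.05. Nr1h3, itself among them, Lpcat3 (0.74) and Scd2 had the smallest p. Arl4c was at 0.53, Apoe at 0.07 and Srebf1 at 0.03, while Mylip was at -0.46 and lower on each shared slide. Scd2 stood well above background on 3 of the fasted but 1 of the fed arrays, so it too was measured through its fasted arrays, and no difference is given.

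Of 16 carriers for drugs, bile salts and organic ions, exporters among them, 14 were measured, 11 with higher means (42.9% of all genes) and a median of 0.31. In limma 0 passed and 3 had an unadjusted p under 0.05 (6.03% of all genes). Slc51b and Slc51a, the partners of the basolateral bile salt exporter, had differences of 2.40 and 1.36, and Slc15a1, the peptide carrier, 1.11. Slc15a1 was well above background on 4 fasted but 2 fed arrays, and Slc47a1, also with a higher mean, on 3 fasted but 1 fed array. Both were measured through their fasted arrays and support no count. Tap2, Cftr and Tap1, family members whose symbols do not start with Abc, stood at 0.23, 0.05 and -0.06.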

How the data were processed

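Lower jejunal crypt RNA from 8 mice went onto 8 single-colour Agilent mouse arrays with Cy5 as the dye, per the labels' protocols. Linear spot intensity, already background-subtracted, was taken from the deposited scanner output, which comes from version 11.5.1.1 of Agilent Feature Extraction per the file headers. A matrix deposited by the authors gives these arrays on a log2 scale, whose scaling and centring are not given in the sources used here. Its column medians were 7.73 to 8.33 and its ranks followed the processed signal (lowest Spearman correlation within an array 0.99986, across probes).

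Control and outlier spots were left out, spots of a probe were averaged, and log2 of the processed signal was scaled by subtracting the 75th percentile of its array. Symbols came from accessions matched to a RefSeq table (GRCm38.p6) for 27655 of 39429 probes and from the files for 11774; 68 of the 73 ABC probes matched. Probe positions are the files', in mm9. The brightest probe by mean over the 8 arrays stood for a gene, if well above background on at least 4 arrays. Genes were tested with limma 3.58.1 under R 4.3.3 (lmFit, then eBayes with trend), modelling group and the sex on the label, and p was adjusted by Benjamini-Hochberg over all 19495 genes. The procedure was also run on 5 simulated sets with known differences in 200 genes each. Their noise was independent between arrays, without slide or array quality effects. The outcome is not given here, so it says nothing about how many true differences could pass. Confidence intervals are from the same fit.

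The ABC genes, their role lists, the lists of related genes and markers, and the tests were chosen with earlier results of these data known. Named with every array's value were the 6 etoposide pumps, the gene of smallest p in each subfamily and genes whose groups did not overlap; Abcg8, Abcg4 and Abcc12 were added after their values were seen. Of the 50 genes, 2 are counted with the family but not reported by name here. Alternatives covered scaling, background correction, the authors' matrix, filters, probe choice, the model terms, slide, replicate number, array weights and left-out arrays.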

Additional observations from a re-analysis of the deposited data

Results flagged for a closer look

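In 5 of the 74 groups of 4 arrays examined (37 genes, fasted and fed), 1 array lay far from the other arrays of its group by Dixon's test at 95%, and chance flags about 1 group in 20. Abca5 was at -1.28 on fasted 4, against -2.61 to -2.65 on the other fasted arrays. Abcc10 was at -0.16 on fed 4, against 0.24 to 0.31 on the others, and Abcc8 was at 0.15 on fed 4, against 0.66 to 0.70. Abcc3 was at 1.87 on fed 2, against 1.30 to 1.37. Abcf2 was at 1.55 on fasted 1, against 1.95 to 1.99. None of these arrays was fasted 3.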

How the results depend on the processing

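Under all 25 alternatives 0 ABC genes and 0 of all genes passed the threshold. Of these, 24 were other fits at a threshold of 0.05, and 1 was a threshold of 0.1 in the main fit alone. The smallest limma adjusted p was 0.062, with the share of probes above background as a covariate, which lies under 0.1. The direction of 22 of 36 ABC genes was the same in every alternative, among them Abcc2, Abcc3, Abcg2, Abcg5, Abcb1b and Abcc5, and 14 turned in at least 1; the cause was not tested. The median over the ABC genes ran from -0.009 to 0.214, and 8 of 456 medians of subfamilies and lists moved by more than the spread between replicates, all in subfamily C or its organic anion transporters.

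The direction turned for Abcb1a with normexp background correction (-0.149), with slide as a random block (-0.0152) and with the share above background as a covariate (-0.00894). With that covariate Abca14 (-0.282), Abca15 (-0.523) and Abca8a (-0.574) turned too. Abca8a was at -0.509 in the authors' deposited table, Abca14 at -0.16 with the mean of its probes, Abca4 at 0.00224 with slide as a block, and Abcc9 at -0.00433 with slide as a random block. Array weights turned Abca4 (0.1), Abcc1 (-0.0223) and Abcc9 (-0.098). With both fasted replicate 3 and fed replicate 4 left out, Abca4 (0.431), Abcb6 (-0.0962), Abcb9 (-0.0827), Abcc1 (-0.111), Abcc12 (0.359), Abcc6 (0.127), Abcc9 (-0.0368) and Abcg4 (0.502) turned.

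Leaving out 1 array at a time, the log2 difference ran from -0.418 to 0.929 for Abca14, -0.463 to 1.2 for Abca15, -0.806 to 0.43 for Abca4, -0.4 to 0.0177 for Abca7 and -0.43 to 1.02 for Abca8a. It ran from -0.233 to 0.336 for Abcb1a, -0.0567 to 0.437 for Abcb9, -0.105 to 0.243 for Abcc1, -2.08 to 0.42 for Abcc12 and -1.25 to 0.102 for Abcc6. The range was -0.059 to 0.103 for Abcc9, -0.318 to 0.0956 for Abcd4 and -1.62 to 0.369 for Abcg4. Without turning, it ran from -0.362 to -0.085 for Abca2, 0.000594 to 0.388 for Abcb6, -0.379 to -0.0536 for Abcb8, 0.16 to 0.372 for Abcf1 and 0.0423 to 0.365 for Abcf2. Among the genes that array weights moved by more than 1.5 times were Abca5 (1.58), Abcb1b (-0.229), Abcc5 (-0.405), Abcd3 (0.219), Abcf3 (0.338) and Abcg2 (0.928).

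With replicate number as a block in place of sex, 0 ABC genes passed, 23 were higher and the median was 0.157. Same-numbered arrays deviated together in pairs 1 and 4 (correlations of 0.372 and 0.606), which share slides, and oppositely in pairs 2 and 3 (-0.469 and -0.446), which do not. Number and slide coincide in pairs 1 and 4, and deviations were taken from group means. The correlations therefore cannot show whether the numbers pair the mice.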
